A study of Mus musculus with 13 samples.

Results

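The genes described here are 45 mouse genes of DNA replication and mitosis, taken as a fixed list of named genes and followed across all groups of the series. All 45 were found by their Entrez identifiers, with the same counts for each mouse in all 3 deposited tables, among the 22246 genes whose counts agreed between the tables. By known role, 17 act in G1 and S phase and 28 in mitosis. Livers came from C57 mice aged 3 months in 3 groups. The 5 no BDL mice are labelled non treated and received no oligonucleotide. The 4 miR-Ctrl BDL mice had their bile duct ligated and received a control oligonucleotide, and the 4 anti-miR-873-5p BDL mice had the ligation and an inhibitor of the microRNA miR-873-5p. Ligated mice were injected into the tail vein on the days after surgery and killed a week after it, and the study's methods describe them as male. No sham operation or vehicle injection is stated for the no BDL mice, so ligation, surgery and injection cannot be told apart in comparisons with them.

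Most hepatocytes of an adult liver rest outside the cell cycle. A cell that enters the cycle first raises cyclin D and cyclin E activity, then loads the MCM helicase onto replication origins and copies its DNA. In G2 it switches on a group of mitotic genes through FOXM1 and B-MYB complexes, which act at CHR elements of their promoters. Bile duct ligation is known to set cholangiocytes, stellate cells and other cells of the portal area dividing, and hepatocytes may divide as well. RNA of a whole liver cannot assign these transcripts to a cell type, and fewer cycling cells cannot be told apart from less RNA per cycling cell.

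Sequencing gave 12185333 to 19689037 counts per mouse. The table that sets both BDL groups against each other holds 3 mice per group and is named as free of outliers. It lacks miR-Ctrl BDL mouse 3 and anti-miR-873-5p BDL mouse 2, which the tables against no BDL include. These 2 mice stood apart in the genes described here: miR-Ctrl BDL mouse 3 was the lowest of its group for 37 of the 45 genes, and anti-miR-873-5p BDL mouse 2 for 43 of 45. Mice are numbered within a group, and equal numbers are different animals. Values called normalized counts are CPM values, counts scaled to a common library size, after scaling by trimmed mean of M values (TMM) over all 13 mice. In bulk liver the hepatocyte markers Alb, Ttr, Apoa1 and Hnf4a summed to 36136 to 107715 normalized counts in every mouse.

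Against no BDL, the edgeR test called 35 of the 45 genes higher and 1 lower in miR-Ctrl BDL, with 6 tested and not called and 3 (Bub1, Ttk and Cenpe) below the filter on low counts. Among all 13072 genes tested, 19.1% were called higher and 16.6% lower. For anti-miR-873-5p BDL against the same no BDL mice, 24 of the 45 were called higher and 1 lower, 10 were tested and not called, and 10 fell below the filter (Cdc6, Ccnb1, Ccnb2, Melk, Bub1, Ttk, Aurkb, Cenpe, Kif23 and Tpx2). Of all 13130 genes tested there, 13.1% were called higher and 8.44% lower. Cdc6, Ccnb1, Ccnb2, Plk1, Melk, Foxm1, Aurkb, Kif23 and Tpx2, with at most 12 counts in any no BDL mouse, passed the filter through miR-Ctrl BDL alone. They are among the 35 and could only be called higher. The same holds for Plk1 and Foxm1 in the comparison with the inhibitor. Fitting the 3 groups together kept all 45 genes in the test, and their median log2 fold change over no BDL was 2.29 in miR-Ctrl BDL and 1.69 in anti-miR-873-5p BDL, beside -0.017 and -0.013 over all genes. With Cdc6, Melk, Bub1 and Ttk set to the lower bounds given below, both medians stayed at 2.29 and 1.69. In the anti-miR-873-5p BDL comparison the count depended on single mice. It was 41 (40 higher) without mouse 2 of that group, 14 without mouse 3 and 12 without mouse 4, and it was 13, 13, 15 and 12 without no BDL mouse 1, 2, 3 and 4 in turn. Calls over all genes moved as well, from 2823 to 4317 (18.4% called higher) without mouse 2, to 1261 and 1392 without mouse 3 and 4, and to 1738, 1718, 1824 and 1713 without those no BDL mice. Without miR-Ctrl BDL mouse 3, 41 genes were called higher and 1 lower in that group, where 22.2% of all genes were called higher.

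**Figure D1:**
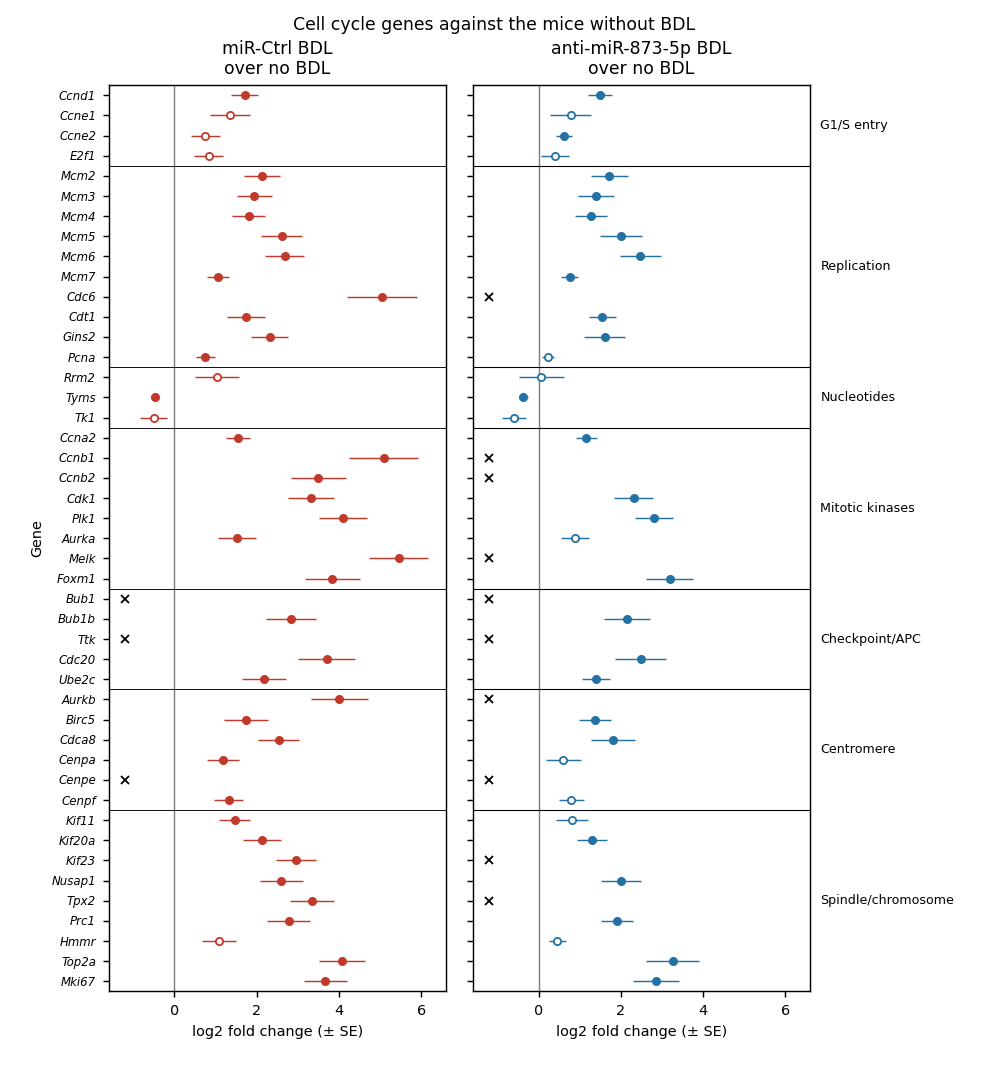
Log2 fold change with its standard error of each of the 45 genes in miR-Ctrl BDL (left) and anti-miR-873-5p BDL (right) over no BDL, 4 mice against 5 in each panel. Filled points passed an adjusted p of 0.05, open points did not, and crosses at the left edge mark genes below the filter on low counts. Tyms is the filled point below 0 in both panels, and the points of mitosis genes reach 5.09 (Ccnb1) on the left and 3.26 (Top2a) on the right, apart from Melk, whose fitted value, like that of Cdc6, depends on the prior count.

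Scaling decides where 0 lies in both comparisons. With library sizes in place of TMM, all genes had a median log2 fold change of 0.79 in miR-Ctrl BDL and 0.82 in anti-miR-873-5p BDL, and calls over all genes moved from 2491 higher and 2175 lower to 9360 higher and 275 lower in miR-Ctrl BDL, and from 1715 and 1108 to 10063 and 131 in anti-miR-873-5p BDL. Under that scaling 41 and 33 of the 45 genes were called higher and 0 lower. Relative to the median of all genes, 40 of 42 genes tested in miR-Ctrl BDL and 33 of 35 in anti-miR-873-5p BDL lay above it under either scaling, and Tyms and Tk1 lay below it.

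Of the 4 regulators of entry into S phase, 1 was called higher with the control oligonucleotide and 2 with the inhibitor, beside 19.1% and 13.1% of all genes. Ccnd1 encodes cyclin D1, which starts the phosphorylation of the retinoblastoma protein in G1. Its normalized counts were 56.4, 32.5, 23.6, 52.6 and 46.7 in no BDL mice 1 to 5, 144, 82.2, 95.8 and 223 in miR-Ctrl BDL mice 1 to 4, and 134, 65.4, 125 and 141 in anti-miR-873-5p BDL mice 1 to 4. Every ligated mouse was above every no BDL mouse. The log2 fold change was 1.71 ± 0.33 (SE, adjusted p = 0.00373) with the control oligonucleotide and 1.49 ± 0.29 (adjusted p = 0.00837) with the inhibitor. Exons of other genes, LTO1 most of all, cover 23.4% of the exon bases of Ccnd1, and the counts cannot separate reads from there.

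Cyclin E1 and cyclin E2 activate CDK2 at the start of S phase, and E2F1 is the transcription factor that drives their genes. Ccne1 had log2 fold changes of 1.35 ± 0.49 (adjusted p = 0.0569) and 0.78 ± 0.50 (adjusted p = 0.296) in the same order of groups, and neither was called. Ccne2 passed with the inhibitor (0.62 ± 0.19, adjusted p = 0.0395) and not in miR-Ctrl BDL (0.75 ± 0.35, adjusted p = 0.126), where mouse 3 (1.58 normalized counts) was below all no BDL mice and mouse 4 (6.66) above all others. Exons of other genes, Ints8 most of all, cover 17.4% of the exon bases of Ccne2. E2f1 had 0.83 ± 0.36 (adjusted p = 0.102) and 0.39 ± 0.34 (adjusted p = 0.451) and passed in neither. Without miR-Ctrl BDL mouse 3 and anti-miR-873-5p BDL mouse 2, E2f1 passed in both, at 1.08 ± 0.26 (adjusted p = 0.00961) and 0.65 ± 0.19 (adjusted p = 0.0319). E2f1 was not alone in this. Ccne2 then passed in miR-Ctrl BDL as well (adjusted p = 0.0138), and Hmmr passed in both. Aurka, Cenpa, Cenpf and Kif11 then passed with the inhibitor (adjusted p = 0.00652, 0.0145, 0.0366 and 0.0153). Ccne1, Rrm2 and Tk1 still passed in neither, and Pcna not with the inhibitor.

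All 10 genes of origin licensing and the replication fork rose in miR-Ctrl BDL, and 8 of the 9 tested rose in anti-miR-873-5p BDL, where Pcna was not called and Cdc6 was below the filter. Their median log2 fold change in the fit of 3 groups was 2.01 and 1.54. MCM2 to MCM7 form the ring of the replicative helicase. Mcm6 had 3.28, 2.48, 4.38, 6.66 and 6.12 normalized counts in no BDL mice, 38.6, 14.5, 10.9 and 51.9 in miR-Ctrl BDL mice and 27.9, 5.54, 23.3 and 43.1 in anti-miR-873-5p BDL mice. Every miR-Ctrl BDL mouse and every anti-miR-873-5p BDL mouse except mouse 2 was above the highest no BDL mouse. Its log2 fold changes were 2.68 ± 0.48 (adjusted p = 0.00263) and 2.47 ± 0.50 (adjusted p = 0.00946), the largest of the MCM genes listed here in both comparisons. The other 5 ring genes ranged from 1.06 (Mcm7) to 2.61 (Mcm5) in miR-Ctrl BDL and from 0.75 (Mcm7) to 2.00 (Mcm5) in anti-miR-873-5p BDL, and all of them passed. Of the windows of 50 bases of Mcm7, 23.3% also occur in other genes, most of all in Gm5487, so its value is uncertain.

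CDC6 and CDT1 place the MCM ring on origins, and the Cdc6 transcript was scarce without ligation. Cdc6 had at most 2 counts in any no BDL mouse, and its levels there were 0, 0.0953, 0.172, 0.164 and 0.0795 normalized counts. In the 4 miR-Ctrl BDL mice it had 3.01, 1.49, 0.916 and 8.87, and in anti-miR-873-5p BDL mice 2.62, 0.228, 1.27 and 3.93. The group means were at least 13.9-fold and at least 7.81-fold higher than the level that 3 counts per no BDL library give, and no ligated mouse fell within the no BDL range. Cdt1 also passed in both, at 1.74 ± 0.47 (adjusted p = 0.0179) and 1.55 ± 0.33 (adjusted p = 0.0116). Gins2, a subunit of the GINS complex that joins the helicase, had 2.32 ± 0.45 and 1.60 ± 0.49. Exons of other genes, Gse1 most of all, cover 67.3% of its exon bases, so its counts are uncertain. Pcna, the sliding clamp of the DNA polymerases, had 0.75 ± 0.23 (adjusted p = 0.0287) and 0.22 ± 0.15 (adjusted p = 0.306). Of its windows, 19.1% also occur in other genes, most of all in Pcna-ps2.

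The 3 enzymes of nucleotide supply stood apart from the rest of the list. TYMS makes thymidylate, TK1 salvages thymidine, and RRM2 is the cell cycle regulated subunit of ribonucleotide reductase. Tyms had 82.5, 81.2, 75.6, 76.7 and 67.9 normalized counts in no BDL mice, 52.5, 52.0, 54.5 and 56.7 in miR-Ctrl BDL mice and 61.8, 56.3, 53.5 and 61.2 in anti-miR-873-5p BDL mice. Every ligated mouse was below every no BDL mouse. The log2 fold change of Tyms was -0.48 ± 0.087 (miR-Ctrl BDL, adjusted p = 0.00258) and -0.37 ± 0.1 (anti-miR-873-5p BDL, adjusted p = 0.0268) under TMM, but with library sizes alone the values were 0.32 and 0.46, so Tyms was lower relative to the other genes and not per sequenced read. Tk1 had -0.51 ± 0.33 (adjusted p = 0.254) and -0.60 ± 0.30 (adjusted p = 0.177) under TMM and 0.28 and 0.20 with library sizes. Rrm2 had 1.04 ± 0.54 (adjusted p = 0.161) and 0.067 ± 0.55 (adjusted p = 0.943), and its no BDL mice alone ran from 3.34 to 12.8 normalized counts.

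Most of the largest fold changes lay in the 28 mitosis genes, among them genes that passed the filter only through the ligated mice. Of the G1 and S phase genes, Cdc6 reached 5.04 in miR-Ctrl BDL, a fitted value that depends on the prior count. The mitosis genes were then looked at by their promoters. Since many mitosis genes moved together and their promoters are known to share CHR elements and CCAAT boxes, RefSeq promoter sequences (GRCm38.p6) were searched from 250 bases before to 50 bases after each start, on both strands, for the CHR element (TTTGAA, or TTCGAA), the CCAAT box (CCAAT) and E2F sites (TTTCGCGC, TTTGGCGC, TTTCCCGC or TTTGGCGG, some of which overlap each other in inverted order). Entries were matched for 36 of the 45 genes, with 38 promoters. No entry was matched for Mcm4, Tpx2, Gins2, Ccne2, Aurkb, Ccnd1, Kif20a, Ccna2 and Foxm1. A CHR element was found in 19 of 24 promoters of mitosis genes (79.2%), in 2 of 14 of G1 and S phase genes (14.3%) and in 19.2% of all 32851 promoters. A CCAAT box was found in 87.5%, 57.1% and 37.4%, and an E2F site in 8.33%, 42.9% and 2.37%. A match is a description of letters and not a bound site.

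The promoters of 5 mitosis genes are shown first because they hold both a CHR element and a CCAAT box, then those of Mcm5 and Mcm6 with E2F sites, then that of Tyms, which holds none of the motifs. Capitals mark the motifs, on the gene's strand or as their reverse complement, and each run spans 170 bases before to 50 bases after the start, 5′ to 3′ on the gene's strand. The GRCm38.p6 positions are chr7:122159265-122159484 (+) for Plk1, chr4:118437294-118437513 (-) for Cdc20, chr9:61946750-61946969 (-) for Kif23, chr9:70421505-70421724 (-) for Ccnb2, chr11:40733388-40733607 (-) for Hmmr, chr8:75109339-75109558 (+) for Mcm5, chr1:128359656-128359875 (-) for Mcm6 and chr5:30073576-30073795 (-) for Tyms.
Plk1: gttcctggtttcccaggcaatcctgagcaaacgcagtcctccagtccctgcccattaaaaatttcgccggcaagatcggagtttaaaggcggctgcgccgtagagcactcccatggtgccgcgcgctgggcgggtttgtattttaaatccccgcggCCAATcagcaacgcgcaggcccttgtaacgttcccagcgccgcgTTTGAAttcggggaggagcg
Cdc20: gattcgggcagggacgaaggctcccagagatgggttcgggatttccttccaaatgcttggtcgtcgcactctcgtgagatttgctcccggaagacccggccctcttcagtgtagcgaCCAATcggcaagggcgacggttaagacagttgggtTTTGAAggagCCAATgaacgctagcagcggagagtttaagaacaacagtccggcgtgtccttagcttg
Kif23: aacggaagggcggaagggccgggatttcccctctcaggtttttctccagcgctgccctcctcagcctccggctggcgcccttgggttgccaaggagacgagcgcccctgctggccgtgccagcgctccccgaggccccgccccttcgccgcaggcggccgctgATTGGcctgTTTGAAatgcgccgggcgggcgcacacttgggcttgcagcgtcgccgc
Ccnb2: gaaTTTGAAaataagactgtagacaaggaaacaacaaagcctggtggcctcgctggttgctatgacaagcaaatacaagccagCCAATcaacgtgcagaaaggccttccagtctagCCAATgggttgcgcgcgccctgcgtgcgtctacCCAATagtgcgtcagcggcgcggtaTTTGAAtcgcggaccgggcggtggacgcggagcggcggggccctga
Hmmr: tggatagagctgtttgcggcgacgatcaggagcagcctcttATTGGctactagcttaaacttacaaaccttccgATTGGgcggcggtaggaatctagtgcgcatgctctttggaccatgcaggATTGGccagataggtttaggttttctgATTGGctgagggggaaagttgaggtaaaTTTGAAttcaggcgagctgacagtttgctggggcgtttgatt
Mcm5: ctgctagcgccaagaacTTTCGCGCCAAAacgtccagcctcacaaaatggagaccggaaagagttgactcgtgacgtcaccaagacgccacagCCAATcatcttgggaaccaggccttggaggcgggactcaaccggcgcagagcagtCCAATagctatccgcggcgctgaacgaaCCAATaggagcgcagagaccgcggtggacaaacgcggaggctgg
Mcm6: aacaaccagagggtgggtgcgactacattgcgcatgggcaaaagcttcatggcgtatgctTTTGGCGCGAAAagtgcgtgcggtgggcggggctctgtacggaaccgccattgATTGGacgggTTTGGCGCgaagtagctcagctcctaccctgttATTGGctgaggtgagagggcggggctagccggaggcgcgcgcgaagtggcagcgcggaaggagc
Tyms: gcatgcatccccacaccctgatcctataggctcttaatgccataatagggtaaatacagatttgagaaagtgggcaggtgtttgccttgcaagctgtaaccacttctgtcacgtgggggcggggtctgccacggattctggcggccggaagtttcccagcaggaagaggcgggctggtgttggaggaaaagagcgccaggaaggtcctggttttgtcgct

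In these windows the CHR element of Plk1, Kif23, Ccnb2 and Hmmr lies after the start and that of Cdc20 just before it. Ccnb2 holds another one near the far end and 3 CCAAT boxes between them. Mcm5 and Mcm6 each hold CCAAT boxes and a pair of overlapping E2F sites, and no CHR element. From 60 bases before the start on, a limit chosen after the matches were seen, a CHR element was found in 75% of the mitosis promoters, in 0 of the 14 G1 and S phase promoters and in 5.9% of all promoters.

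Among mitotic cyclins, kinases and their transcription factor, all 8 genes rose in miR-Ctrl BDL, while with the inhibitor 4 of the 5 tested rose. The median log2 fold change of the 8 in the fit of 3 groups was 3.64 and 2.89, or 3.38 and 2.52 with Melk at its lower bound. PLK1 is the kinase that drives centrosome maturation and mitotic entry. Plk1 had 0.432, 0.667, 0.343, 0.247 and 0.477 normalized counts in no BDL mice, 14.7, 4.05, 2.00 and 8.51 in miR-Ctrl BDL mice and 4.12, 0.910, 2.84 and 3.98 in anti-miR-873-5p BDL mice. No ligated mouse fell within the no BDL range, and miR-Ctrl BDL mice 1 and 4 were above all others. The log2 fold changes were 4.10 ± 0.59 (adjusted p = 8.92e-04) and 2.80 ± 0.47 (adjusted p = 0.00427). Part of the Plk1 transcript sequence (10.4% of windows of 50 bases) also occurs in other genes, most of all in Plk-ps1.

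Cyclins B1 and B2 and CDK1 make up the kinase of mitotic entry. Ccnb1 had 0.259, 0.286, 0.258, 0 and 0.397 normalized counts in no BDL mice, 18.4, 3.63, 1.33 and 9.65 in miR-Ctrl BDL mice and 6.12, 0.607, 3.14 and 4.42 in anti-miR-873-5p BDL mice. All ligated mice lay above the no BDL mice. Its log2 fold change in miR-Ctrl BDL was 5.09 ± 0.84 (adjusted p = 0.00163). Other genes, Ccnb1-ps most of all, share 23.4% of the windows of 50 bases of Ccnb1. Ccnb2 rose by 3.50 ± 0.67 in miR-Ctrl BDL (adjusted p = 0.00352), with mouse 3 (0.833) inside the no BDL range of 0.572 to 0.874. Cdk1 passed in both comparisons, with 3.33 ± 0.56 (adjusted p = 0.00191) and 2.31 ± 0.48 (adjusted p = 0.0103). Ccna2, the cyclin of S phase and G2, had 1.55 ± 0.29 (adjusted p = 0.00334) and 1.16 ± 0.25 (adjusted p = 0.0112), passing in both. It was higher in every ligated mouse than in any no BDL mouse. Exons of other genes, Exosc9 most of all, cover 12.5% of its exon bases.

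Foxm1 encodes the transcription factor of the G2 and mitosis genes. It had 0.345, 0.286, 0.343, 0.411 and 0.636 normalized counts in no BDL mice, 12.2, 2.98, 0.999 and 7.02 in miR-Ctrl BDL mice and 6.31, 0.986, 2.05 and 5.35 in anti-miR-873-5p BDL mice. The groups did not overlap with no BDL. Its log2 fold changes of 3.84 ± 0.67 (adjusted p = 0.00228) and 3.18 ± 0.56 (adjusted p = 0.00526) were of the same order as those of Plk1 and Cdk1. Melk, a kinase gene of proliferating cells, had at most 1 count in each no BDL mouse and was by group means at least 7.13-fold higher with the control oligonucleotide and at least 3.84-fold higher with the inhibitor, where mouse 2 was at 0. Aurka, the spindle pole kinase, had 1.52 ± 0.45 (adjusted p = 0.0248) and 0.89 ± 0.34 (adjusted p = 0.0875).

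Of the 5 genes of the spindle checkpoint and the anaphase promoting complex, the 3 that were tested rose in both comparisons. Cdc20, the activator of the anaphase promoting complex, had 1.64, 0.762, 0.601, 0.575 and 1.59 normalized counts in no BDL mice, 27.1, 8.40, 1.67 and 15.7 in miR-Ctrl BDL mice and 10.3, 0.834, 4.52 and 7.07 in anti-miR-873-5p BDL mice. In miR-Ctrl BDL all mice were above no BDL, mouse 3 only just, while anti-miR-873-5p BDL mouse 2 was inside the no BDL range. The log2 fold changes were 3.70 ± 0.69 (adjusted p = 0.00317) and 2.48 ± 0.62 (adjusted p = 0.0207). Other genes, Gm7856 most of all, hold 10.6% of the windows of Cdc20. Bub1b, a part of the checkpoint complex that holds CDC20 back, rose by 2.83 ± 0.61 and 2.15 ± 0.56. Ube2c, the ubiquitin-conjugating enzyme of the anaphase promoting complex, rose by 2.18 ± 0.54 and 1.40 ± 0.34. However, exons of other genes, Tnnc2 most of all, cover 22.8% of the exon bases of Ube2c. The checkpoint kinase genes Bub1 and Ttk had at most 2 counts in each no BDL mouse. Bub1 group means were at least 8.54-fold (control oligonucleotide) and at least 3.73-fold (inhibitor) higher, with anti-miR-873-5p BDL mouse 2 at 0. Ttk was at least 7.94-fold and at least 4.66-fold higher.

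The chromosomal passenger, centromere and kinetochore genes rose less evenly, with 5 of 5 tested called in miR-Ctrl BDL and 2 of 4 in anti-miR-873-5p BDL. Aurkb encodes the kinase of the passenger complex that corrects chromosome attachment. It had 0.432, 0.191, 0.258, 0 and 0.477 normalized counts in no BDL mice, 6.32, 2.38, 1.25 and 7.68 in miR-Ctrl BDL mice and 2.19, 0.0758, 2.11 and 3.34 in anti-miR-873-5p BDL mice. Only anti-miR-873-5p BDL mouse 2 fell within the no BDL range, and the log2 fold change in miR-Ctrl BDL was 4.01 ± 0.69 (adjusted p = 0.00204). The other passenger subunits Birc5 (1.74 ± 0.53 and 1.37 ± 0.39) and Cdca8 (2.53 ± 0.49 and 1.81 ± 0.54) passed in both comparisons. Cenpa, the histone that marks centromeres, passed in miR-Ctrl BDL (1.18 ± 0.39, adjusted p = 0.0387) and not with the inhibitor (0.60 ± 0.42, adjusted p = 0.341), and Cenpf did likewise (1.32 ± 0.35, adjusted p = 0.0161, and 0.79 ± 0.30, adjusted p = 0.0846). Cenpe, a kinetochore motor, was tested in neither comparison. It had 0.0953 to 0.605 normalized counts in no BDL mice, 5.78, 2.02, 0.416 and 4.32 in miR-Ctrl BDL mice and 2.81, 0.228, 1.81 and 3.14 in anti-miR-873-5p BDL mice, with mouse 3 and mouse 2 of these groups inside the no BDL range.

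Among the 9 genes of the spindle, motors, midbody and chromosome structure, 8 rose in miR-Ctrl BDL and 5 of the 7 tested rose in anti-miR-873-5p BDL. Mki67, the Ki-67 protein of the surface of mitotic chromosomes, is the usual marker of cycling cells. It had 0.691, 1.24, 2.66, 0.904 and 1.99 normalized counts in no BDL mice, 30.3, 11.8, 6.08 and 27.0 in miR-Ctrl BDL mice and 13.6, 2.12, 10.6 and 16.4 in anti-miR-873-5p BDL mice. Again only anti-miR-873-5p BDL mouse 2 was within the no BDL range. Its log2 fold changes were 3.67 ± 0.53 (adjusted p = 9.09e-04) and 2.86 ± 0.56 (adjusted p = 0.00811).

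Top2a, the topoisomerase that untangles sister chromatids, had 0.950, 0.477, 0.944, 0.822 and 1.35 normalized counts in no BDL mice, 22.9, 7.09, 4.66 and 26.0 in miR-Ctrl BDL mice and 9.93, 0.910, 7.54 and 15.9 in anti-miR-873-5p BDL mice. Within each ligated group the order of mice was that of Mki67, except that miR-Ctrl BDL mouse 4 was above mouse 1. The log2 fold changes were 4.07 ± 0.56 (adjusted p = 6.85e-04) and 3.26 ± 0.64 (adjusted p = 0.00833). The spindle assembly factor Tpx2 and the central spindle motor Kif23 rose in miR-Ctrl BDL by 3.35 ± 0.54 and 2.96 ± 0.48 and were below the filter in anti-miR-873-5p BDL. Prc1, which bundles the central spindle, and Nusap1, which binds spindle microtubules, had 2.78 ± 0.52 and 2.60 ± 0.53 with the control oligonucleotide and 1.91 ± 0.39 and 2.00 ± 0.48 with the inhibitor, all past the threshold.

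The remaining 3 were less even. Kif20a, a cytokinesis motor, rose by 2.13 ± 0.46 and 1.30 ± 0.37, with 29.3% of its exon bases also in exons of other genes, most of all Cdc23. Kif11, the motor that separates spindle poles, rose with the control oligonucleotide (1.46 ± 0.37, adjusted p = 0.0125), and with the inhibitor it had 0.81 ± 0.40 (adjusted p = 0.176). Hmmr, a spindle and hyaluronan binding protein, passed in neither, at 1.08 ± 0.41 (adjusted p = 0.0644) and 0.45 ± 0.21 (adjusted p = 0.146). Its no BDL mice held 3.89 to 5.58 normalized counts, with miR-Ctrl BDL mouse 3 at 2.75 below them all. Without that mouse and anti-miR-873-5p BDL mouse 2, Hmmr passed in both (adjusted p = 0.00207 and 0.0443).

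**Figure D2:**
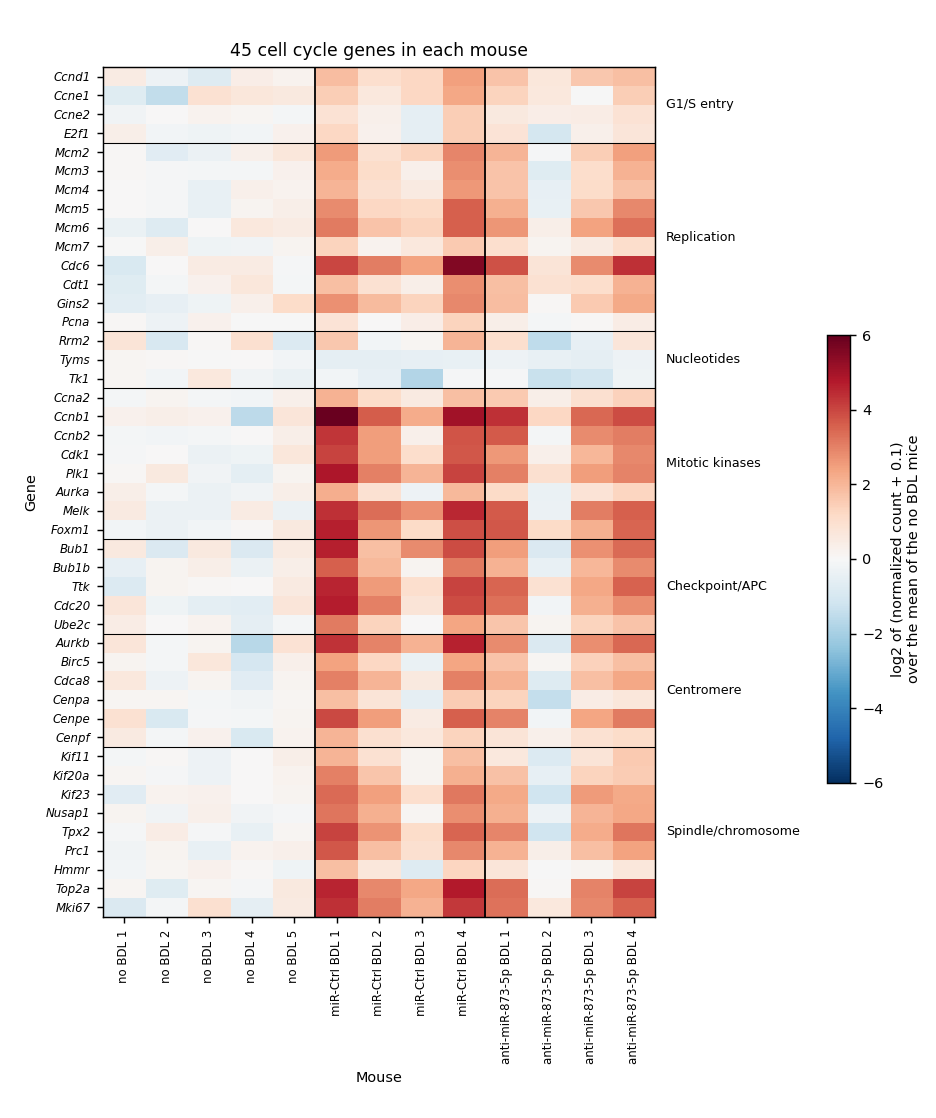
Each row is a gene and each column a mouse, coloured by the log2 of its normalized count plus 0.1 over the mean of the no BDL mice, with black lines between groups and between roles. The columns of miR-Ctrl BDL mice 1 and 4 are the darkest red, that of anti-miR-873-5p BDL mouse 2 is close to white, and the row of Tyms is pale blue in all ligated mice.

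The ligated mice differed widely among themselves. Summed over the 28 mitosis genes, the no BDL mice had 31.1 to 44.4 normalized counts (38.2 ± 4.78, SD, n = 5). The miR-Ctrl BDL mice had 376, 134, 57.9 and 278 (212 ± 143, n = 4), and the anti-miR-873-5p BDL mice had 168, 35.8, 117 and 175 (124 ± 64.2, n = 4). Every ligated mouse but anti-miR-873-5p BDL mouse 2 was above the no BDL range. Over the 17 G1 and S phase genes the sums were 203 to 246 in no BDL (224 ± 18.1), 492, 271, 279 and 694 in miR-Ctrl BDL (434 ± 201) and 417, 205, 330 and 464 in anti-miR-873-5p BDL (354 ± 114), and the same mouse 2 was again within the no BDL range. The sum over G1 and S phase genes was 4.95 to 7.68 times the mitosis sum in no BDL mice, 1.31, 2.02, 4.82 and 2.50 times in miR-Ctrl BDL mice and 2.49, 5.74, 2.82 and 2.64 times in anti-miR-873-5p BDL mice. Mitosis genes thus made up more of the total in 6 of the 8 ligated mice than in any no BDL mouse, and in 1 more, miR-Ctrl BDL mouse 3, by a small margin. In no BDL, Tyms (mean 76.8), Ccnd1 (42.4), Pcna (27.9) and Tk1 (19.3) weighed most in the G1 and S phase sum. The ratio therefore depends largely on these genes. Without the 2 mice absent from the table of both BDL groups, the mitosis sums were 263 ± 122 and 153 ± 31.6 (SD, n = 3 each). Of the 45 genes, 24 were higher in every miR-Ctrl BDL mouse than in every no BDL mouse, where 14.3% of 12984 genes were, and 10 were higher in every anti-miR-873-5p BDL mouse, where 9.98% were. With those 2 mice left out, both counts were 38, where 20.8% and 17.2% of the 12984 genes were higher in every mouse.

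**Figure D3:**
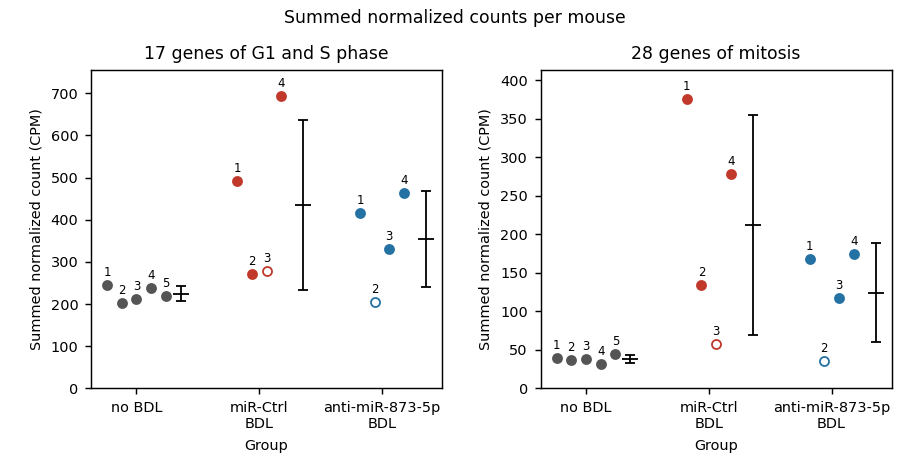
Each numbered point is a mouse, and the y axis is its summed normalized count over 17 genes of G1 and S phase (left) or 28 genes of mitosis (right), with the mean and SD of all mice of a group beside it. Open points are the 2 mice absent from the table of both BDL groups, and in the right panel miR-Ctrl BDL mouse 1 (376) is the highest and anti-miR-873-5p BDL mouse 2 (35.8) is level with no BDL.

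The 2 miR-Ctrl BDL mice with the highest sums differed in which phase they led. Mouse 4 was the highest of its group for all 17 G1 and S phase genes, and mouse 1 for 25 of the 28 mitosis genes. The median log2 ratio of mouse 4 over mouse 1 was 0.49 over the former and -0.44 over the latter, with Cdc6 (1.56) at one end and Ccnb1 (-0.93) at the other. With library sizes in place of TMM, 15 of the 17 genes were higher in mouse 4, Tyms and Tk1 being the exceptions, and 25 of 28 in mouse 1. The mitosis genes higher in mouse 4 were Melk, Aurkb and Top2a. This pattern was noticed in the values and concerns 1 animal of each kind, so no test was made.

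**Figure D4:**
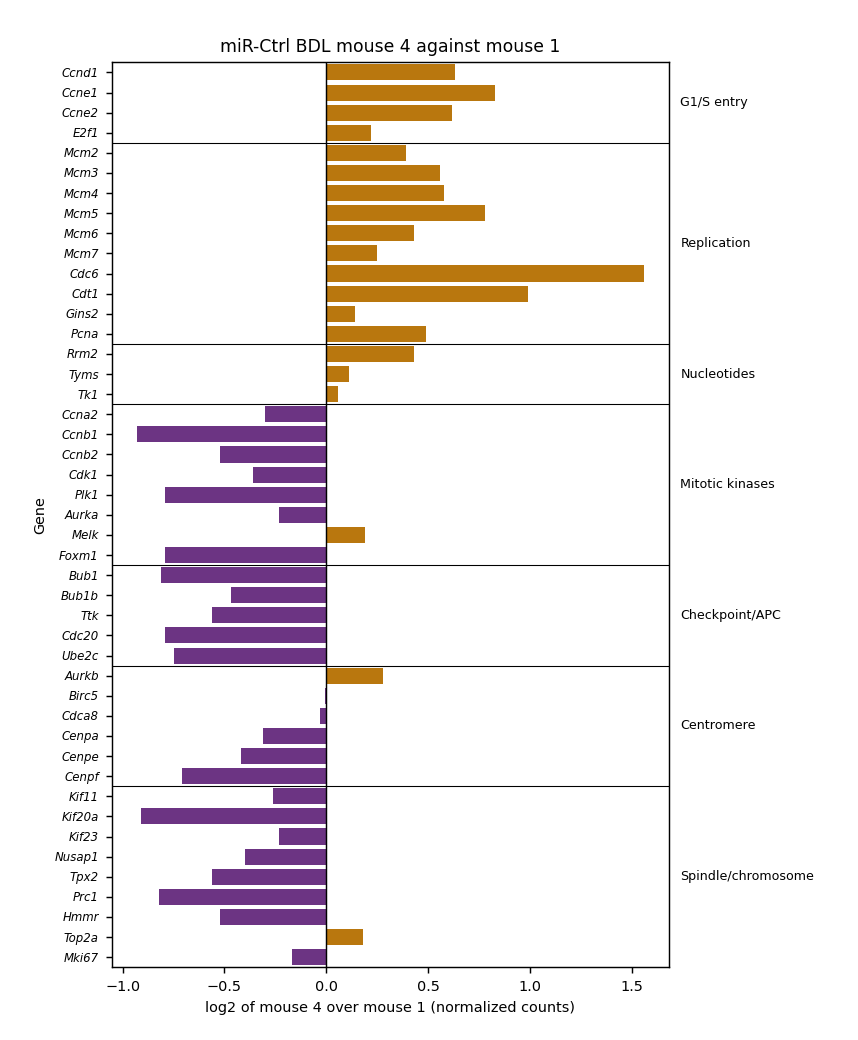
The bars are the log2 ratio of the normalized counts of miR-Ctrl BDL mouse 4 over mouse 1 for each gene, grouped by role. All 17 bars of G1 and S phase genes point right, and 25 of the 28 bars of mitosis genes point left.

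Whether inhibition of miR-873-5p altered these genes after ligation was compared directly in the table of both BDL groups, with miR-Ctrl BDL mice 1, 2 and 4 against anti-miR-873-5p BDL mice 1, 3 and 4. All 45 genes were tested and 0 passed with edgeR, where 0 of all 13746 genes did (0% called). With DESeq2 0 of the 45 passed, beside 19 genes higher and 12 lower of 18277. The log2 fold change was negative for 44 of the 45, where 6709 of all 13746 genes were negative. The median was -0.66 beside 0.0057 over all genes, and the exception was Tyms (0.13 ± 0.10). In miR-Ctrl BDL, mice 1 and 4 were the highest of the group for 25 and 20 of the 45, so the 44 are not separate observations. The lowest adjusted p was 0.757 with edgeR and 0.335 with DESeq2. At an unadjusted p below 0.05, edgeR had 7 of the 45 (Cdk1, Plk1, Cdc20, Aurkb, Kif20a, Kif23 and Hmmr), beside 863 of 13746 genes.

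By role, the medians were -0.38 for regulators of S phase entry, -0.49 for replication genes, -0.72 for mitotic cyclins and kinases, -0.87 for checkpoint genes, -0.61 for centromere genes, -0.74 for spindle and chromosome genes and -0.17 for nucleotide supply enzymes. Plk1 had the most negative value, -1.32 ± 0.45 (adjusted p = 0.757), with 14.7, 4.05 and 8.51 normalized counts in the 3 miR-Ctrl BDL mice and 4.12, 2.84 and 3.98 in the 3 inhibitor mice. The value of 4.05 in miR-Ctrl BDL mouse 2 fell between those of the other group, so the groups overlapped. Cdc20 had -1.23 ± 0.46 (adjusted p = 0.763), and its 8.40 in miR-Ctrl BDL mouse 2 was below the 10.3 of anti-miR-873-5p BDL mouse 1. Mki67 had -0.77 ± 0.35 (adjusted p = 0.781) and Mcm6 -0.16 ± 0.44 (adjusted p = 0.958).

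For 0 of the 45 genes were all 3 anti-miR-873-5p BDL mice below all 3 miR-Ctrl BDL mice, which held for 4.64% of 12984 genes. Mouse 2 of miR-Ctrl BDL had the lowest mitosis sum of its 3 (134), and the 3 anti-miR-873-5p BDL mice lay at 168, 117 and 175 around it. With all 4 mice per group the median was -0.64 and the lowest adjusted p was 0.980. Left out in turn, single mice moved genes of the G1 and S phase lists across 0: without miR-Ctrl BDL mouse 4, Ccnd1, Ccne2, Mcm2, Mcm5, Mcm6, Cdc6 and Cdt1 became positive.

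**Figure D5:**
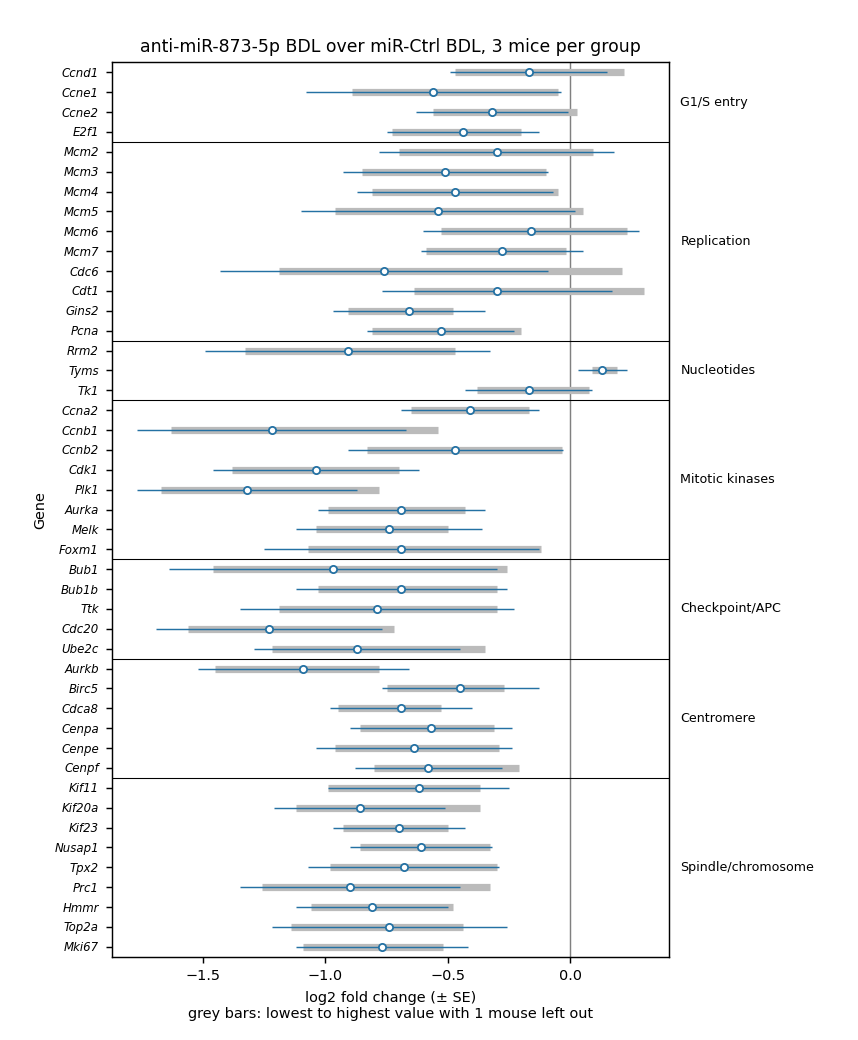
Open points are the log2 fold change with its standard error of each gene in anti-miR-873-5p BDL over miR-Ctrl BDL, 3 mice per group, and grey bars run from the lowest to the highest value with 1 mouse left out. The points of 44 genes lie left of 0 and none passed an adjusted p of 0.05. The grey bars of 8 genes, Tk1 among them, cross 0.

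Beside the 45, a list of 98 other cell cycle genes was counted. In miR-Ctrl BDL 40 were called higher and 8 lower of 87 tested, in anti-miR-873-5p BDL 21 and 4 of 82, and between the BDL groups 0 of 95. Of all genes, 19.1% were called higher and 16.6% lower in miR-Ctrl BDL, and 13.1% and 8.44% in anti-miR-873-5p BDL. The genes of mitosis in it moved most often. In miR-Ctrl BDL 21 of 25 tested were called higher and 1 lower, led by Ckap2l (4.01 ± 0.75), Kif2c (3.96 ± 0.61), Kif4 (3.82 ± 0.57) and Aspm (3.19 ± 0.62). With the inhibitor 13 of 20 were called higher and 1 lower, led by Racgap1 (2.54 ± 0.59) and Anln (2.31 ± 0.36). Of these 30 mitosis genes, 5 fell below the filter in miR-Ctrl BDL and 10 with the inhibitor, against the same no BDL mice. Any that entered a test through the ligated mice alone could only be called higher, and their number was not counted. Of the other replication genes, 10 of 31 were called higher and 4 lower in miR-Ctrl BDL, and with the inhibitor 3 and 2 of 31, beside 13.1% and 8.44% of all genes. The DNA ligase gene Lig1 rose by 2.41 ± 0.36 and 1.73 ± 0.40.

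Mcm10, an initiation factor that is no part of the MCM ring, went the other way. It had 93.7, 71.3, 121, 134 and 62.3 normalized counts in no BDL mice, 10.6, 11.7, 3.33 and 13 in miR-Ctrl BDL mice and 29.7, 4.63, 11.6 and 18.9 in anti-miR-873-5p BDL mice. The ligated mice were all below the no BDL mice. The log2 fold change of Mcm10 was -3.28 ± 0.40 (adjusted p = 4.23e-04) and, with the inhibitor, -2.54 ± 0.48 (adjusted p = 0.0068).

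Of the 7 CDK inhibitors, Cdkn2c (1.47 ± 0.34) and Cdkn2d (1.07 ± 0.21) rose in miR-Ctrl BDL and Cdkn2c (1.27 ± 0.29) in anti-miR-873-5p BDL, of 5 tested in each. The list of pocket proteins, E2F and DREAM genes had 3 higher and 3 lower of 17 tested in miR-Ctrl BDL, with Rbl1 (2.20 ± 0.43) and Mybl2 (1.37 ± 0.39) higher and Rbbp4 (-0.79 ± 0.16) and Rbl2 (-0.71 ± 0.16) lower. In anti-miR-873-5p BDL it had 2 higher and 1 lower of 17. These shares are close to those of all genes (19.1% higher and 16.6% lower, and 13.1% and 8.44%). Other cyclins and kinases of G1 and S had 4 higher and 0 lower of 9 tested in miR-Ctrl BDL, led by Cdc25a (1.57 ± 0.25), and 2 higher and 0 lower of 9 in anti-miR-873-5p BDL. With library sizes in place of TMM all these values shift upwards by the medians of all genes given above.

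Markers of several cell types moved with ligation as well. Cholangiocyte markers were called higher for 5 of 5 genes in both comparisons, with Krt19, Krt7, Epcam and Sox9 summed to 10.6 to 14.1 normalized counts in no BDL, 42.1 to 79.5 in miR-Ctrl BDL and 37.7 to 92.2 in anti-miR-873-5p BDL. Myofibroblast and stellate cell markers were called higher for 4 of 6 in both, with sums of 51.7 to 96.4, 187 to 616 and 116 to 763. Macrophage markers were called higher for 5 of 6 and 1 of 6, with sums of 120 to 660, 525 to 1435 and 377 to 1334. Hepatocyte markers were called lower for 3 of 5 and 1 of 5, and erythroid markers lower for 2 and 1 of the 3 tested. Of the neutrophil list 3 of 3 and 2 of 2 tested were higher, of the lymphocyte list 1 of 1 was higher in miR-Ctrl BDL and 1 of 2 was lower with the inhibitor, and of the endothelial list 0 of 5 passed in miR-Ctrl BDL and 1 of 5 was lower with the inhibitor. Beside these counts, 19.1% of all genes were called higher and 16.6% lower in miR-Ctrl BDL, and 13.1% and 8.44% in anti-miR-873-5p BDL. No marker was called between the BDL groups. Hemgn, of the erythroid list, had no count in any no BDL mouse, Ly6g, of the neutrophil list, was not analysed here, and every other marker had counts in every group.

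In the 2 mice with the lowest cell cycle levels of their groups these lists did not move as one. Anti-miR-873-5p BDL mouse 2 had the lowest sum of its group for cholangiocyte (37.7), myofibroblast (116), macrophage (377), endothelial (39.5), lymphocyte (5.23) and erythroid (36.6) markers and the highest for hepatocyte markers (78581). In miR-Ctrl BDL mouse 3 the sums were the lowest of the group for myofibroblast (187), macrophage (525), endothelial (27.5), lymphocyte (13.9) and erythroid (43.5) markers, while those for cholangiocyte (79.5) and neutrophil (189) markers were the highest. The part of cell composition in the values of the 45 genes was not tested.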

How the data were processed

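Whole-liver RNA of 13 mice was sequenced as single reads from unstranded TruSeq libraries. The deposited values are raw read counts per Entrez gene in 3 tables, 1 column per mouse, which the authors made from reads mapped to mm10 with TopHat, with CASAVA 1.8.2, FastQC and Trim Galore in the submitters' processing notes. The counting program, its annotation and its strand setting are not given in the sources used here. Counts of 773 genes, none of them among the 45, differed between tables, so values over all 13 mice used the other genes.

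Each table was fitted with edgeR 4.0.16 in R 4.3.3 (filterByExpr, TMM, quasi-likelihood F test with group as the only term), with Benjamini-Hochberg adjustment over all genes tested and a threshold of 0.05. The standard error is the log2 fold change divided by the root of F. Libraries held 12185333 to 19689037 counts, and a floor of 3 counts per library was used where no BDL libraries held at most 3. The script was tested on simulated data. Alternatives were DESeq2 1.42.0, DESeq2 size factors in edgeR, library sizes, 1 fit of 3 groups, no filter, a replicate block and each mouse left out, and, chosen after seeing the data, counts of genes whose groups did not overlap.

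The 45 genes and all lists were chosen with earlier results of these data known. Genes outside the 45 were named only from the lists, at most 4 per list and comparison, as those past the threshold with the largest fold changes. Mice are separate animals by their labels, which give no litter or batch. Cps1, Spp1 and Des were left out of marker sums because their counts differed between tables, and Ly6g was not analysed here.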

Additional observations from a re-analysis of the deposited data

Results flagged for a closer look

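Ccnb2 in the no BDL mice was at 0.874 normalized counts in mouse 5, from 11 reads, against 0.572 to 0.657 in the other 4 mice, a gap over Dixon's 95% limit for 5 samples. Of 131 groups of values tested in this way 1 was far out, and chance alone flags about 1 in 20.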

How the results depend on the processing

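Genes past the threshold in miR-Ctrl BDL over no BDL numbered 36 in the reported test and 34 to 41 under the other tests, filters and scalings, and 32 to 42 with 1 mouse left out. For anti-miR-873-5p BDL over no BDL the reported 25 became 14 with a replicate block and 25 to 35 under the other tests, filters and scalings. It was 41 without mouse 2 of that group and 12 to 41 with any 1 mouse left out, and 10 genes were higher in every mouse without overlap. Deviations of same-numbered mice from their group means correlated at -0.19 to 0.06 with no BDL mice and at -0.37 to 0.54 between the BDL groups, and not every mouse correlated best with its own number, so the block rests on a shared number only. Between the BDL groups the count was 0 under every alternative run. With library sizes the summed level of the 45 genes over no BDL was 4.33 times in miR-Ctrl BDL in place of 2.46, and 3.35 times in anti-miR-873-5p BDL in place of 1.82.

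Directions changed for few genes. With library sizes Tyms was at 0.32 and Tk1 at 0.28 in miR-Ctrl BDL, and at 0.46 and 0.20 in anti-miR-873-5p BDL (log2). Rrm2 in anti-miR-873-5p BDL was at -0.24 with the replicate block and ran from -0.31 to 0.36 with 1 mouse left out. Between the BDL groups, leaving out 1 mouse gave ranges of -0.47 to 0.22 for Ccnd1, -0.56 to 0.026 for Ccne2, -0.70 to 0.094 for Mcm2, -0.96 to 0.050 for Mcm5, -0.53 to 0.23 for Mcm6, -1.19 to 0.21 for Cdc6, -0.64 to 0.30 for Cdt1 and -0.38 to 0.075 for Tk1. The cause of these changes was not tested. Depth limited Bub1, Ttk, Cdc6 and Melk, which had at most 2 reads in each no BDL mouse.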
